A study of Mus musculus with 29 samples.

Results

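RNA polymerase II is the enzyme that transcribes protein-coding genes, and 10 of the genes for its subunits, Polr2a to Polr2j, were followed in the caudate nucleus of HdhQ150 mice and their wild-type littermates. The genes were found by symbol among probe sets annotated with 1 symbol, and the probe set with the highest mean was kept for each. This gave 10 of the 19938 genes on the array. Polr2a, the largest subunit, was picked because it was higher in HdhQ150 mice at 12 and 18 months, so its values at these ages are described without a test. The members were thus chosen by the measured Polr2a difference at those ages, and the other 9 subunits were taken with it for belonging to the same enzyme.

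HdhQ150 mice model Huntington's disease. A long CAG repeat was placed in the mouse's own huntingtin gene, Htt, so the expanded allele keeps its native promoter in every cell type that uses it. All mice had the mixed background that the labels call 129/Ola x C57BL6/J. Total RNA of the caudate nucleus of 29 mice, 1 array each, was measured at 6 months (5 wild type, 5 HdhQ150), 12 months (5 and 6) and 18 months (4 and 4). Each age was sampled from different animals, and the labels do not say whether HdhQ150 mice had 1 or both alleles expanded. There were 23 mice labelled female and 6 labelled male, with females alone at 18 months.

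Levels are log2 values, on which a difference of 1 is a doubling, and array medians ran from 6.91 to 7.05. Htt was lower in HdhQ150 mice by log2 differences of -0.39, -0.42 and -0.32 at 6, 12 and 18 months (limma adjusted p = 0.00457, 0.000122 and 0.0523), the last short of the threshold of 0.05 used throughout. Of the striatal projection neuron markers, 11 of 12 were measured with gene means from 7.79 to 12.75. Cortical excitatory neuron markers had gene means from 5.67 to 11.45. The summed level of choroid plexus markers ran from 9.58 to 13.09 among wild-type mice at 6 months. No other tissue was measured, so the caudate label itself was not tested. A pair of arrays stood apart. Wild-type mouse WT-454 at 12 months had a mean correlation of 0.945 with its group, where the other 4 had 0.9747 to 0.978. HdhQ150 mouse 1023 at 6 months is labelled female, but its Xist level of 5.95 was within that of labelled males (5.50 to 6.13). Where leaving out either changed a call or clearly moved a value for the subunit genes or the lists, that value follows.

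The enzyme is built around Polr2a and Polr2b, which form the cleft and active site. Polr2a also carries the long C-terminal domain of repeated peptides whose phosphorylation marks initiation, pausing and elongation and recruits RNA processing factors. Polr2c and Polr2j pair to start assembly, Polr2d and Polr2g form a stalk, Polr2i sits at the jaw and helps accuracy, and Polr2e, Polr2f and Polr2h are shared with RNA polymerases I and III. In Huntington's disease, transcription in striatal neurons is a long-studied site of disturbance.

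The promoters of 3 members are shown because the array results turn on them: Polr2a for its genotype difference, Polr2b for its opposite direction at 6 months and Polr2e for its difference between ages. Each run holds the 250 bases before the annotated start, written along the gene's strand, from RefSeq on GRCm38.p6. They lie at chr11:69758634-69758883 (minus strand), chr5:77310234-77310483 (plus) and chr10:80039660-80039909 (minus). Capitals mark matches to TATAAA or GGGCGG, on either strand, so that a reverse match of GGGCGG reads CCGCCC.
Polr2a: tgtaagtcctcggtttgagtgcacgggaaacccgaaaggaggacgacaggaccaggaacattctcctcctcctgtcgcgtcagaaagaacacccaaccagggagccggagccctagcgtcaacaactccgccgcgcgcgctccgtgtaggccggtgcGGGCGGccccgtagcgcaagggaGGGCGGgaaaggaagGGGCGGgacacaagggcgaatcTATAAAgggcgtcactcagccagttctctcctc
Polr2b: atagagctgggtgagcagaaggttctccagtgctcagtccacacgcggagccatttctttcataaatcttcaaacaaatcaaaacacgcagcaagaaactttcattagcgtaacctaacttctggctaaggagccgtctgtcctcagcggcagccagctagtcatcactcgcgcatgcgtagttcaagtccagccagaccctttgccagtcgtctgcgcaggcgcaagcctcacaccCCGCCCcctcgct
Polr2e: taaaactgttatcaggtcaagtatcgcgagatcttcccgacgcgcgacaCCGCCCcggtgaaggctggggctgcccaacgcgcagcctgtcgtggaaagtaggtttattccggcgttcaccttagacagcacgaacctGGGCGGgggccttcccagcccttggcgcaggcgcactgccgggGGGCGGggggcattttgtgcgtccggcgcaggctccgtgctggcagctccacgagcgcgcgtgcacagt
Polr2a had TATAAA from -33 to -28 relative to the start and GGGCGG 3 times, in a window of 62.8% GC. Polr2b had 1 GGGCGG on the reverse strand, from -13 to -8, and 54.0% GC. Polr2e had GGGCGG 3 times and 65.6% GC. None of the 3 windows held CCAAT on either strand. These matches describe the letters alone.

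Over 32851 annotated starts, windows of the same length held TATAAA in 12.4%, CCAAT in 33.8% and GGGCGG in 32.7%, with a median GC content of 52.4%. Table entries were used for 8 of the 10 members, with 9 starts, of which 2 held TATAAA (Polr2a and Polr2c), 3 CCAAT (Polr2c, Polr2i and Polr2j) and 7 GGGCGG. Entries were not used here for Polr2d and Polr2g. The gene bodies of the leading members lie at chr11:69733997-69758633 (Polr2a), chr5:77310484-77349328 (Polr2b) and chr10:80035953-80039659 (Polr2e).

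Polr2a was higher in HdhQ150 than in wild-type mice at all 3 ages, and at no age did the mice of the 2 genotypes overlap. The 5 wild-type mice at 6 months had levels of 8.72, 8.79, 8.85, 8.87 and 8.94, with a mean of 8.83 ± 0.0808 (SD, n = 5). The 5 HdhQ150 mice had 8.94, 9.0, 9.04, 9.09 and 9.14, with a mean of 9.04 ± 0.0783 (SD, n = 5). The groups touched at this age: the highest wild-type mouse, WT-1002, and the lowest HdhQ150 mouse, 1017, were both at 8.94 after rounding, and HdhQ150 mouse 1017 was the higher by a margin smaller than that. The log2 difference of 0.21 (SE 0.0645, 95% interval 0.07 to 0.34), 1.15-fold, did not pass the threshold over all genes (limma adjusted p = 0.173, unadjusted p = 0.00344). It passed with arrays weighted by their quality (0.22, limma adjusted p = 0.012) and without mice WT-454 and 1023 (0.19, limma adjusted p = 0.0318). These fits called 1330 and 868 of all genes at 6 months, where 5 were called with all mice weighted equally. Over the other alternatives the adjusted p ran from 0.0617 to 0.421.

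At 12 months the wild-type mice had Polr2a levels of 8.45, 8.76, 8.76, 8.84 and 8.85, and the mean was 8.73 ± 0.162 (SD, n = 5). The lowest, mouse WT-454, is the array that stood apart. The 6 HdhQ150 mice were closer together, from 9.16 over a median of 9.20 to 9.29, with a mean of 9.21 ± 0.0498 (SD, n = 6). Every HdhQ150 mouse exceeded every wild-type mouse by at least the distance from 8.85 to 9.16. The difference was 0.48 (SE 0.0614), 1.39-fold, and 0.38 without mouse WT-454.

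At 18 months the 4 wild-type mice had 8.82, 8.86, 8.98 and 9.01, a mean of 8.92 ± 0.0959 (SD, n = 4). The 4 HdhQ150 mice had 9.18, 9.24, 9.28 and 9.32, a mean of 9.26 ± 0.0583 (SD, n = 4). The 2 groups were again apart, with a difference of 0.34 (SE 0.0713), 1.27-fold. Leaving out any 1 mouse gave 0.31 to 0.37 at this age and 0.385 to 0.505 at 12 months. These 2 ages were used to pick the gene and have no test here.

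**Figure D1:**
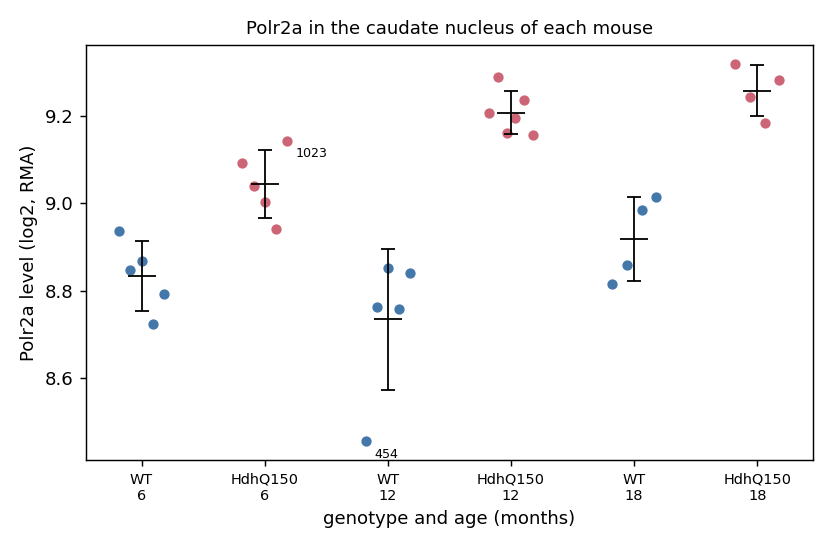
Polr2a level (log2, vertical axis) of each mouse (points) by genotype and age in months, with the mean and SD of each group in black; blue is wild type, red HdhQ150, and mice WT-454 and 1023 are numbered. HdhQ150 mice lie above wild-type mice of their age throughout, from 9.16 to 9.29 at 12 months against 8.45 to 8.85.

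Fewer cells of a type and less RNA per cell cannot be told apart in RNA from whole tissue, and cell type markers moved with genotype. The summed level of the striatal projection neuron markers was 14.24 to 14.51 in wild type and 13.80 to 14.29 in HdhQ150 mice at 6 months. It was 14.62 to 14.81 against 14.25 to 14.46 at 12 months and 14.02 to 14.23 against 13.45 to 13.94 at 18 months. At 6, 12 and 18 months 0, 3 and 3 of the 11 markers fell (Penk, Pde10a and Scn4b at both later ages, limma). Of all genes 0.0201%, 0.602% and 0.0802% fell. Without mice WT-454 and 1023 the markers that fell were 4, 4 and 3. That fit called 868 of all genes at 6 months, in either direction, in place of 5, and also called more at the later ages. The summed oligodendrocyte markers, 7 genes, overlapped at 12 months (13.04 to 13.21 against 13.05 to 13.28) and at 18 months (13.03 to 13.18 against 13.08 to 13.33). None of the 7 passed at either age (limma), but unadjusted p was under 0.05 for 5 and 3 of them, and for 8.98% and 5.81% of all genes. Mbp, Mog and Cnp had genotypes apart at 18 months, as 3.7% of all genes did. Of 8 astrocyte markers, S100b alone rose at 12 and 18 months, where 0.336% and 0.0552% of all genes rose. The part of cell composition in the Polr2a difference was not tested.

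In order of mean level, Polr2a was highest in HdhQ150 mice at 18 months, then in HdhQ150 at 12 and at 6 months, and then in wild type at 18, 6 and 12 months. Neighbours in this order overlapped, except that HdhQ150 mice at 12 months (from 9.16) lay just above those at 6 months (to 9.14). Among HdhQ150 mice the level at 12 months exceeded that at 6 months by 0.17 (SE 0.0614), and 18 months differed from 12 by 0.04 (SE 0.0672). Among wild-type mice the difference from 6 to 12 months was -0.10 (SE 0.0645), and -0.0068 without mouse WT-454. From 12 to 18 months wild type differed by 0.18 (SE 0.0684), or 0.11 without mouse WT-454. The genotype difference at 12 months exceeded that at 6 months by 0.27 (SE 0.0898), which was not tested because the arrays at 12 months had chosen the gene.

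Polr2b, the second large subunit of the active centre, had its largest difference at 6 months and in the opposite direction. Wild-type mice had 7.86, 7.90, 7.99, 8.03 and 8.16 (mean 7.99 ± 0.12, SD, n = 5), and HdhQ150 mice had 7.62, 7.64, 7.70, 7.75 and 7.92 (7.73 ± 0.12, SD, n = 5). Only HdhQ150 mouse 1023, at 7.92, reached into the wild-type range. The difference of -0.30 (95% interval -0.49 to -0.12), 1.23-fold lower, missed the threshold (limma adjusted p = 0.157). It passed with array weights (-0.30, limma adjusted p = 0.011) and without mice WT-454 and 1023 (-0.32, limma adjusted p = 0.0155), the fits that called 1330 and 868 of all genes.

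At the later ages Polr2b differed little between genotypes. Wild-type mice at 12 months had 7.33, 7.92, 7.97, 8.0 and 8.18, where the 7.33 is mouse WT-454, and HdhQ150 mice had 7.76 to 8.02 with a median of 7.94. The difference of 0.06 (limma adjusted p = 0.971) became -0.08 without mouse WT-454. At 18 months wild-type mice had 7.92 to 8.05 and HdhQ150 mice 7.82 to 8.08, a difference of 0.01 (limma adjusted p = 0.999). The change of the Polr2b difference from 6 to 12 months was 0.36 (95% interval 0.10 to 0.62) and did not pass (limma adjusted p = 0.709, unadjusted p = 0.00845). Without mouse WT-454 it was 0.20 (95% interval -0.01 to 0.41, limma adjusted p = 0.833). The 2 subunits of the active centre thus differed in opposite directions at 6 months, neither past the threshold with all arrays weighted equally.

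The assembly pair did not separate the genotypes. Polr2c was at 9.20 ± 0.076 in wild type and 9.31 ± 0.113 in HdhQ150 mice at 6 months (SD, n = 5 each), with differences of 0.12, 0.11 and 0.00 (0.0026 before rounding) at the 3 ages and limma adjusted p from 0.405. Polr2j differed by 0.10, 0.00 (-0.0034) and -0.04, with limma adjusted p from 0.593. Without mouse WT-454 the 12-month differences were 0.035 (Polr2c) and -0.077 (Polr2j), neither past the threshold. Polr2c has a further probe set on the array that correlated with the one kept at r = 0.10 over 29 arrays, so the 2 do not report the same variation. Its genotype differences were 0.09, 0.10 and 0.10, and neither probe set passed.

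Among the 10 members Polr2f, a shared subunit, had the genotype difference nearest to that of Polr2a at 6 and 12 months. Its levels at 12 months were 9.90, 9.93, 10.01, 10.21 and 10.41 in wild type and 10.15 to 10.38 with a median of 10.33 in HdhQ150 mice. The groups overlapped there, and also at 6 months (9.97 to 10.33 against 10.18 to 10.54) and 18 months (10.24 to 10.42 against 10.34 to 10.84). The differences were 0.20, 0.21 and 0.19 with 95% intervals of 0.01 to 0.39, 0.03 to 0.39 and -0.01 to 0.40. None passed (limma adjusted p = 0.339, 0.412 and 0.901). Without mouse WT-454 the difference at 12 months was 0.15.

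The other shared subunits showed no genotype difference past the threshold. Polr2e differed by 0.01, 0.04 and 0.06, with 95% intervals within -0.14 and 0.23. Polr2h differed by 0.01, 0.00 (0.0012) and 0.01. The Polr2h probe set kept, at a mean of 7.73, and a dimmer one at 7.02 correlated at r = -0.07, and the dimmer one differed by -0.05, -0.09 and -0.03. The sign for Polr2h thus depends on the probe set, and neither passed.

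Of the stalk pair, Polr2d had 6.64, 6.81, 6.88 and 7.0 in wild type and 6.93, 7.03, 7.06 and 7.19 in HdhQ150 mice at 18 months. The groups overlapped by 1 mouse on each side, and the difference of 0.22 (95% interval 0.03 to 0.40) did not pass (limma adjusted p = 0.715, unadjusted p = 0.0241). At 6 and 12 months Polr2d differed by 0.02 and -0.02. Polr2g, its partner, differed by -0.13, 0.10 and 0.03 (limma adjusted p from 0.487). Without mouse WT-454 the 12-month differences were -0.071 (Polr2d) and 0.014 (Polr2g).

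Polr2i was the other member whose genotypes did not overlap at an age. At 6 months wild-type mice had 6.58, 6.62, 6.62, 6.70 and 6.77 and HdhQ150 mice 6.78, 6.80, 6.80, 6.86 and 6.90. The difference of 0.15 (95% interval 0.01 to 0.30) did not pass (limma adjusted p = 0.333, unadjusted p = 0.0387). It was 0.06 at 12 and 0.12 at 18 months, with overlapping groups.

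**Figure D2:**
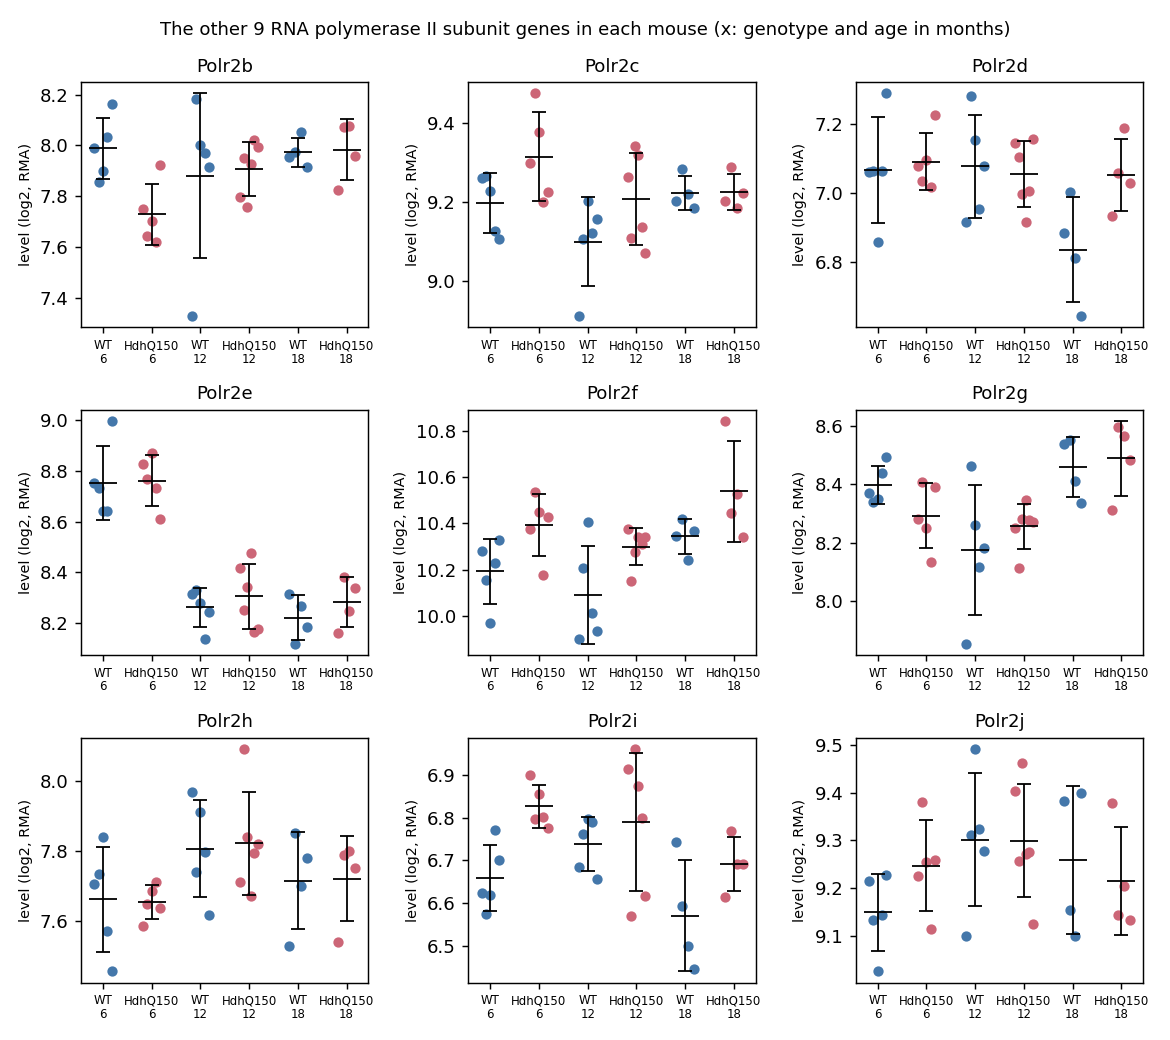
Levels (log2, vertical axes, each with its own range) of the 9 other subunits in each mouse by genotype (blue wild type, red HdhQ150) and age in months, with group means and SDs in black. Polr2e stands at 8.61 to 9.0 at 6 months and 8.12 to 8.48 later in both genotypes, and Polr2b shows 1 wild-type mouse at 7.33 at 12 months.

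Counted over the members, 0 of 10 passed the threshold for genotype at 6 months (limma), where 0.0251% of all genes did. Unadjusted p was under 0.05 for 4 of the 10, and for 13.7% of all genes. Of the 9 tested beside Polr2a, 0 passed at 12 months and 0 at 18 months (limma), where 0.938% and 0.135% of all genes did. Unadjusted p was under 0.05 for 1 member at each of these ages, and for 8.98% and 5.81% of all genes. Genotypes did not overlap for 2 of 10 members at 6 months (Polr2a and Polr2i). At 12 and 18 months this held for 0 of the 9 beside Polr2a, which was picked for its difference at these ages and is not counted. Over all genes this share was 3.18%, 1.59% and 3.7%, and with so few members the counts show nothing particular to them. The median difference over the 10 members was 0.06 at 6 months, with 8 positive. Over the 9 beside Polr2a it was 0.0556 at 12 months (7 positive) and 0.029 at 18 months (8 positive), and 0.0286 at 12 months without mouse WT-454 (6 positive). Medians over all genes were 0.0062, 0.0059 and -0.0037. Of these 9 the largest positive difference was Polr2f at 6 and 12 months (0.20 and 0.21) and Polr2d at 18 months (0.22).

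**Figure D3:**
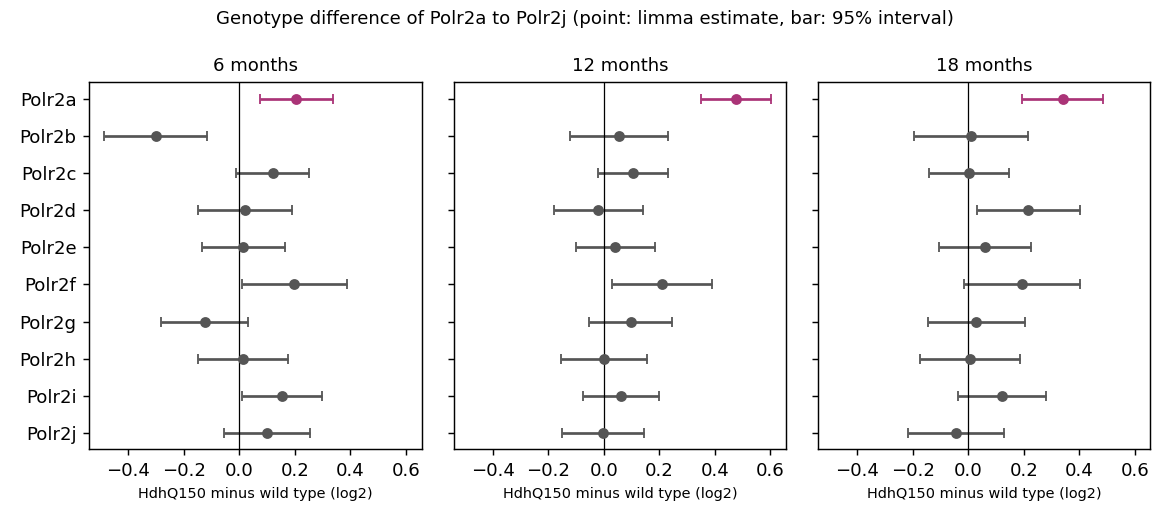
Difference of HdhQ150 from wild type (log2, horizontal axis) for Polr2a to Polr2j at 6, 12 and 18 months, with points as limma estimates and bars as 95% intervals. Polr2a stands at 0.21, 0.48 and 0.34, the last 2 being the ages that chose it, most other intervals include 0, and Polr2b lies at -0.30 at 6 months alone.

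The change of the genotype difference between ages was past the threshold for 0 of 9 members from 6 to 12, 12 to 18 or 6 to 18 months (limma), where 0.00502%, 0% and 0% of all genes passed. Unadjusted p was under 0.05 for 2, 0 and 1 members in turn, and for 6.51%, 2.07% and 8.17% of all genes.

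A shared subunit, Polr2e, differed by -0.46 to -0.52 between 6 months and the later ages. These differences exceeded in size the genotype difference of any member beside Polr2a, and were near the 0.48 of Polr2a at 12 months. Polr2e belongs to RNA polymerases I, II and III alike, and its gene was lower at 12 and 18 months than at 6 months in both genotypes. At 6 months wild-type mice had 8.64, 8.64, 8.73, 8.75 and 9.0 and HdhQ150 mice had 8.61, 8.73, 8.77, 8.83 and 8.87. At 12 months wild-type mice had 8.14, 8.24, 8.28, 8.32 and 8.33, and HdhQ150 mice 8.16 to 8.48 with a median of 8.30. At 18 months wild-type mice had 8.12, 8.18, 8.27 and 8.32 and HdhQ150 mice 8.16, 8.25, 8.34 and 8.38. No mouse of 12 or 18 months reached the lowest mouse of 6 months, at 8.61. Groups that did not overlap, with the older lower, were seen for 6.95% (wild type) and 7.38% (HdhQ150) of all genes at 12 months and for 4.36% and 4.24% at 18 months.

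From 6 to 12 months Polr2e fell by 0.49 on the log2 scale in wild type (SE 0.0731, limma adjusted p = 3.66e-05) and by 0.46 in HdhQ150 mice (SE 0.0695, limma adjusted p = 2.98e-05). From 6 to 18 months it fell by 0.52 (limma adjusted p = 0.000357) and 0.47 (limma adjusted p = 0.000612). Between 12 and 18 months it differed by -0.04 and -0.02, not past the threshold. Every alternative run kept the 4 calls against 6 months. Its genotype difference did not change past the threshold between any ages.

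Other members were steadier with age. In wild type 2 of 9 members fell from 6 to 12 months, Polr2e and Polr2g, where 12.6% of all genes fell. In HdhQ150 mice 1 of 9 fell (Polr2e), where 11.2% of all genes fell. Polr2g fell by 0.24 in wild type (limma adjusted p = 0.0214), but by 0.16 without mouse WT-454 (limma adjusted p = 0.162) and by 0.23 without mouse WT-1020 (limma adjusted p = 0.0575), both short of the threshold. From 6 to 18 months 1 of 9 fell in each genotype, Polr2e again, where 2.95% (wild type) and 2.37% (HdhQ150) of all genes fell. From 12 to 18 months 0 of 9 passed in either genotype (limma; 5.87% and 5.79% of all genes), with unadjusted p under 0.05 for 4 members in wild type and 2 in HdhQ150 mice, and for 15.5% and 17.8% of all genes. Polr2g at 0.26 in wild type came closest there (limma adjusted p = 0.0543).

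Leaving out mouse WT-454 brought 3 further members past the threshold. In wild type Polr2j rose from 6 to 12 months by 0.23 (limma adjusted p = 0.0355; 0.15 with all mice) and Polr2d fell from 12 to 18 months by 0.28 on the log2 scale (limma adjusted p = 0.0443; -0.25 with all mice). In HdhQ150 mice Polr2b rose from 6 to 12 months by 0.19 (limma adjusted p = 0.029; 0.21 with all mice) and from 6 to 18 months by 0.24 (limma adjusted p = 0.0446; 0.21 with all mice). Calls over all genes also moved when 1 mouse was left out. In wild type they ran from 3302 to 6521 (6 to 12 months) and from 696 to 1437 (12 to 18), beside 5121 and 1171 with all mice. In HdhQ150 mice they ran from 3143 to 5868 (6 to 12 months) and from 421 to 1438 (6 to 18), beside 4599 and 927.

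The labels name no extraction, labelling or scan batch, so age and a difference in handling between ages cannot be told apart. The summed striatal projection neuron markers also differed with age in wild type, at 14.24 to 14.51, 14.62 to 14.81 and 14.02 to 14.23 at 6, 12 and 18 months. They went up and then down, with 8 (wild type) and 6 (HdhQ150) of 11 risen from 6 to 12 months, where 13.1% and 11.9% of all genes rose (limma). From 12 to 18 months 9 and 10 of the 11 fell, where 2.07% and 1.61% of all genes fell (limma). Cortical excitatory neuron markers went the other way. From 6 to 12 months 5 and 6 of 7 fell (limma; medians -0.45 and -0.58), where 12.6% and 11.2% of all genes fell. Between 12 and 18 months 3 and 5 rose (limma; medians 0.73 and 0.78), where 3.81% and 4.18% of all genes rose. None passed from 6 to 18 months (limma; unadjusted p under 0.05 for 0). Astrocyte markers fell for 4 and 5 of 8 from 6 to 12 months (limma). From 6 to 18 months Slc1a3 and Gja1 fell and Gfap rose in both genotypes, and Sox9 fell in HdhQ150 mice (limma). The list as a whole was split over that span, with 3 positive and 5 negative in wild type and 4 and 4 in HdhQ150 mice (medians -0.05 and -0.01). Oligodendrocyte markers rose for 2 and 5 of 7 from 6 to 12 months. The part of these cell types in the age differences was not tested.

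The remaining subunits, Polr2k and Polr2l, are shared with the other polymerases, and Polr2m encodes Gdown1, which binds the enzyme. Polr2l followed Polr2e with age: it fell from 6 to 12 months by 0.29 in wild type (limma adjusted p = 0.00105) and by 0.41 in HdhQ150 mice (limma adjusted p = 1.29e-05). Its levels in HdhQ150 mice were 9.56 to 9.75 at 6 months, 9.11 to 9.35 at 12 and 9.23 to 9.43 at 18, with 6 months apart from both. From 6 to 18 months it fell by 0.37 in HdhQ150 mice (limma adjusted p = 0.001), and the difference of -0.20 in wild type did not pass (limma adjusted p = 0.0589). The latter passed without mice WT-454 and 1023 (-0.22, limma adjusted p = 0.0266). It also passed with array weights, no sex term and median centring (limma adjusted p = 0.0155, 0.035 and 0.043), but not in 26 of the 29 fits without 1 mouse. Polr2m fell from 6 to 12 months by 0.37 in wild type (limma adjusted p = 0.000241) and by 0.17 in HdhQ150 mice (limma adjusted p = 0.0492), the latter lost in 19 of the 29 fits without 1 mouse (-0.20 to -0.10). From 12 to 18 months it rose by 0.25 in HdhQ150 mice (limma adjusted p = 0.0292), a call lost in 6 of the 29 fits without 1 mouse. The 0.22 in wild type did not pass (limma adjusted p = 0.0658). At 18 against 6 months Polr2m differed by -0.15 (wild type) and 0.07 (HdhQ150), neither past the threshold. Between genotypes 0 of these 3 passed (limma). At 6 months Polr2l differed by 0.20 (limma adjusted p = 0.149) with the genotypes apart (9.40 to 9.54 against 9.56 to 9.75), and Polr2k by 0.29 (limma adjusted p = 0.19). Both passed under array weights, and also when mice WT-454 and 1023 were left out, the fits that called 1330 and 868 of all genes.

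The rest of the transcription machinery was taken as 9 lists of 156 genes, of which 150 were measured, Polr2k, Polr2l and Polr2m among them. For genotype 0 of 150 passed at 6 months and 0 at 18 months (limma), beside 0.0251% and 0.135% of all genes. At 12 months 1 rose and 1 fell, both general transcription factors, which is 1.33% of the 150 beside 0.938% of all genes and so a share near the background. Ercc3, a helicase subunit of TFIIH that opens promoter DNA, was at 8.64, 8.74, 8.77, 8.84 and 8.86 in wild type and 8.89 to 9.07 with a median of 9.02 in HdhQ150 mice. It rose by 0.24 (SE 0.0503, limma adjusted p = 0.0138; 0.19 without mouse WT-454), and the genotypes did not overlap. Taf4, a subunit of the promoter-binding complex TFIID, had 8.50, 8.55, 8.57, 8.61 and 8.72 in wild type and 8.23 to 8.49 with a median of 8.38 in HdhQ150 mice. It fell by 0.22 (SE 0.0554, limma adjusted p = 0.0442).

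Neither call held under every alternative. Taf4 lost it in 13 of the 29 fits without 1 mouse (limma adjusted p from 0.029 to 0.147), while Ercc3 kept it in all of them (limma adjusted p to 0.0476). Ercc3 and Taf4 both lost it when only the 12-month groups were fitted (limma adjusted p = 0.13 and 0.216) and with median centring (0.0511 and 0.0773). Ercc3 also lost it in females alone (0.20, limma adjusted p = 0.0985). Taf4 also lost it with untrended eBayes and with all probe sets (limma adjusted p = 0.0592 and 0.0665). The median difference over the 150 genes was -0.02, 0.02 and 0.04 at 6, 12 and 18 months, and -0.0157 at 12 months without mouse WT-454.

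By list, the 33 Mediator subunits, which relay signals from activators to the enzyme, had medians of 0.02, 0.00 (0.0048) and 0.03. The 14 kinases and phosphatases of the C-terminal domain had -0.04, 0.05 and 0.07, and the 27 pausing and elongation factors had 0.02, 0.00 (-0.0031) and 0.04. The 14 Integrator subunits had -0.06, 0.01 and 0.01, and the 14 assembly and import factors -0.06, -0.04 and 0.03. The 8 listed subunits of RNA polymerase I had 0.07, 0.07 and 0.00 (0.0047), the 10 of RNA polymerase III -0.06, 0.03 and 0.02, and the 27 general transcription factors -0.05, 0.02 and 0.05. Without mouse WT-454 the 12-month median turned to -0.0883 for the kinases and phosphatases, -0.0398 for Mediator, -0.0676 for Integrator and 0.0027 for the pausing and elongation factors. Ccnk and Ccnt2, cyclins of kinases that act on the C-terminal domain, then fell at 12 months by 0.25 and 0.28 on the log2 scale (limma adjusted p = 0.0299 and 0.0476), where all mice gave -0.14 and -0.08 (limma adjusted p = 0.627 and 0.96).

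**Figure D4:**
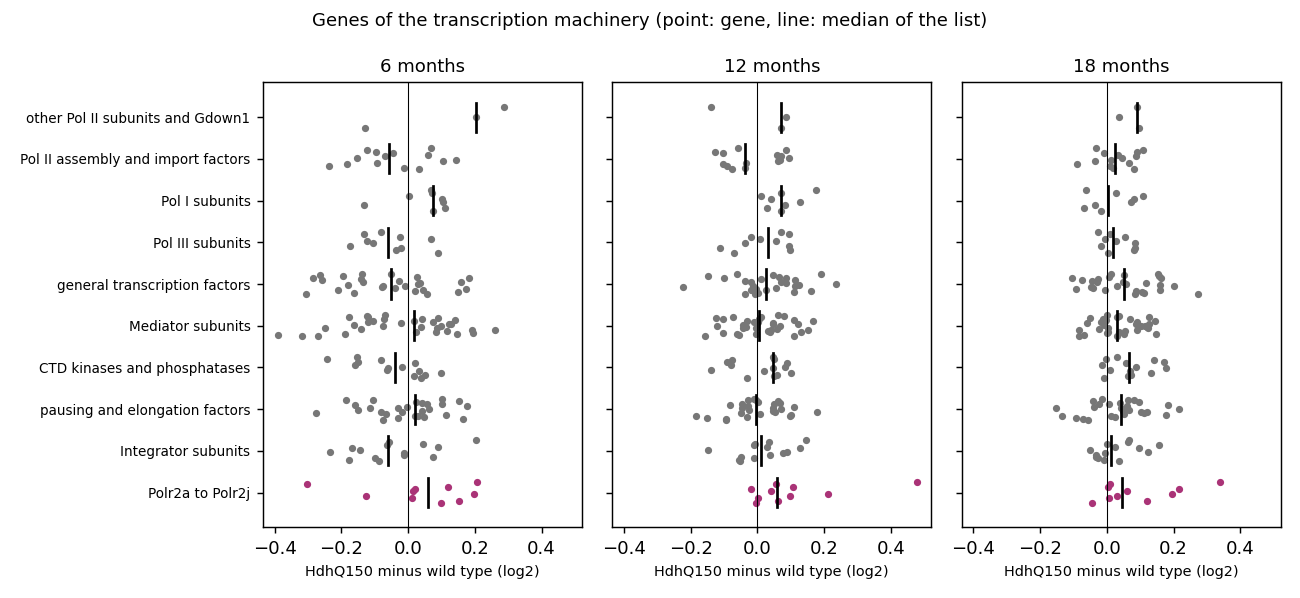
Difference of HdhQ150 from wild type (log2, horizontal axis) of each gene (point) in the 9 lists and in Polr2a to Polr2j, at 6, 12 and 18 months, with the list's median as a black line. List medians lie near 0 at 12 and 18 months, where Polr2a, picked at those ages, stands at 0.48 and 0.34.

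Mice of 1 group that were high in Polr2a were not uniformly high in the other subunits. Over 29 arrays, after removing group means and sex, Polr2a correlated with Polr2b at r = 0.56, Polr2c at 0.38, Polr2j at 0.37, Polr2f at 0.25 and Polr2g at 0.19. Polr2d was at 0.03, Polr2h at -0.02, Polr2e at -0.19 and Polr2i at -0.33. These values rest largely on 2 arrays. Without mice WT-454 and 1023, and with group means and sex removed again over the 27 left, Polr2b was at -0.08, Polr2c at 0.05, Polr2j at 0.04, Polr2f at 0.01 and Polr2g at -0.43. Polr2d was then at -0.46, Polr2i at -0.46, Polr2e at -0.07 and Polr2h at 0.15. Polr2l, outside the 10, was at -0.68 (-0.58 without both mice). These points share arrays and their normalization, so the values are descriptions.

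Among the 45 pairs of members 32 were positive, with a median of 0.19 and a range of -0.41 to 0.71. Without mice WT-454 and 1023 28 were positive, with a median of 0.11 and a range of -0.46 to 0.65. The highest were Polr2b with Polr2g (0.71), Polr2f with Polr2j (0.69), Polr2b with Polr2d (0.66) and the stalk pair Polr2d and Polr2g (0.65), at 0.55, 0.65, 0.62 and 0.58 without these mice. The assembly pair Polr2c and Polr2j was at 0.46, and at 0.30 without them. Polr2h was negative with all 9 other members over 29 arrays, but at 0.15 with Polr2a and 0.03 with Polr2b without these mice. The values of Polr2h and Polr2c hold for the probe set kept. Each gene's other probe set correlated with it at only r = -0.07 (Polr2h) and 0.10 (Polr2c).

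**Figure D5:**
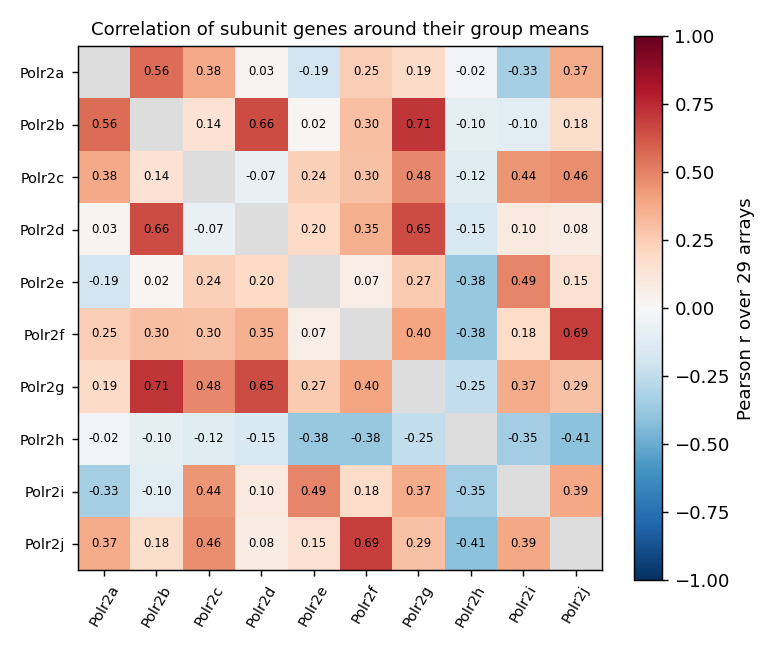
Pearson correlation of each pair of the 10 subunit genes over 29 arrays after removing group means and sex (colour scale from -1 to 1, red positive, blue negative). Polr2b, Polr2d and Polr2g correlate at 0.65 to 0.71, while the probe set kept for Polr2h is at or below -0.02 with all others over these 29 arrays.

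By level over the 29 arrays, the genes most like Polr2a were Sfmbt2 (r = 0.88), Plxnb3 (0.83), Pcdhb15 (0.81), Tmc3 (0.80) and Cd82 (0.80). Without mice WT-454 and 1023 they were Sfmbt2 (0.89), Tmc3 (0.85), Cd82 (0.84), Enpp6 (0.83) and Smoc1 (0.82). After removing group means and sex they were Plk4 (0.86), Zfp111 (0.79), Elp4 (0.78), Ino80d (0.78) and Rpf1 (0.77), and without these mice Mad2l2 (0.75), Gstp3 (0.72), Nabp2 (0.71), Stc2 (0.70) and Ptprm (0.70). The 5 genes of the second measure thus differed wholly between the fits. No subunit gene was among any of these sets.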

How the data were processed

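Caudate RNA was prepared by TRIzol-chloroform extraction and labelled with a WT kit of Affymetrix, per the labels' protocols. The authors deposited log2 levels. The submitters' processing notes name RMA and the Affymetrix Expression Console, with version and options not given in the sources used here. RMA in general corrects background, equalises the distributions of arrays and summarises the probes of a probe set, so values are relative and small differences of dim genes are compressed. All array columns were used.

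Of 35556 probe sets, 21789 had 1 gene symbol in the platform annotation, 1621 had several and 12146 are unnamed here. Symbols were updated by Entrez ID through the RefSeq table of GRCm38.p6 (21698 matched). The probe set with the highest mean was kept for each of the 999 genes with several, which left 19938 genes. No filter on dim genes was applied, so all 10 members were tested.

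Tests used limma 3.58.1 (R 4.3.3; lmFit, eBayes with trend) over 29 arrays with 6 group means and a term for labelled sex, leaving 22 residual degrees of freedom. P-values are two-sided and Benjamini-Hochberg adjusted across the 19938 genes (threshold 0.05), and intervals are at 95%. Each genotype difference is HdhQ150 less wild type, and each age difference the older less the younger group. Mice are separate animals by their numbers in the labels, and their number limits the precision. Summed marker levels are log2 of the sum of the linear values of a list.

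The members and gene lists were chosen with earlier results of these data known. Polr2a has no test at 12 and 18 months, which chose it. The text names all members, Polr2k, Polr2l and Polr2m, list genes past the threshold (at most 4 per list and comparison), the 5 genes most correlated with Polr2a by each measure, and Htt. With all arrays, marker lists of cortical excitatory neurons, choroid plexus, microglia, endothelial cells and oligodendrocytes had no gene past the threshold for genotype (limma). Correlations around group means without mice WT-454 and 1023 used means of the mice left.

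Alternatives were array weights, females alone, no sex term, the brighter 50% of genes, a fit of the compared groups alone, robust or untrended eBayes, median centring, quantile normalization, all probe sets, the mean of a gene's probe sets, mouse 1023 entered as male, leaving out mice WT-454 and 1023, and leaving out each mouse. Scripts were tested on simulated data. Promoters came from RefSeq on GRCm38.p6 and were searched for 3 motifs on both strands with Python 3.11.15.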

Additional observations from a re-analysis of the deposited data

Results flagged for a closer look

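Of 60 pairs of a member and a group, 1 held a mouse far from the rest of its group: Polr2a in wild type at 12 months, where mouse WT-454 was at 8.45 and the nearest of the other 4 mice at 8.76. The gap was 0.765 of the group's whole range. Chance gives such a gap in about 1 in 20 groups. The same array had the lowest correlation with its group and the lowest array weight (0.106), and its Polr2b level of 7.33 was the lowest of all 29 mice. Its part in these values was not tested beyond leaving it out, which gave a Polr2a difference of 0.38 at 12 months in place of 0.48.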

How the results depend on the processing

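Under every alternative Polr2a stayed higher in HdhQ150 mice, by 0.17 to 0.25 at 6 months, 0.382 to 0.505 at 12 and 0.31 to 0.37 at 18, and Polr2e stayed lower at 12 and 18 than at 6 months. The 6-month Polr2a difference passed under array weights (0.22) and when mice WT-454 and 1023 were left out (0.19), each time as 1 of 2 members called (Polr2a and Polr2b). Of all 19938 genes these fits called 1330 and 868, where 5 were called with all mice weighted equally. The members called from 12 to 18 months in wild type became 1 with no sex term, in the brighter 50% of genes, with quantile normalization and without mice WT-454 and 1023. They became 2 with array weights, which called 2027 of all genes there in place of 1171. Array weights gave 3 called from 6 to 12 and from 6 to 18 months in HdhQ150 mice and 1 from 12 to 18 months. Over all genes this fit called 7098, 2489 and 2171 in turn, in place of 4599, 927 and 1154. Leaving out mice WT-454 and 1023 gave 2 members from 6 to 12 and 2 from 6 to 18 months, the latter beside 1646 of all genes. Females alone gave 1 member called from 6 to 12 months in wild type, with 2434 of all genes called in place of 5121. Without 1 mouse the counts of members ran over 1 to 3 (wild type) and 1 to 2 (HdhQ150) from 6 to 12 months, 0 to 1 from 12 to 18 months (wild type), and 1 to 2 from 6 to 18 months in either genotype. Of the 150 list genes, 17 (array weights), 7 (without mice WT-454 and 1023) and 0 to 1 (without 1 mouse) passed at 6 months. Beside them 1330, 868 and 3 to 188 of all 19938 genes passed. At 12 months 0 passed (median centring, only the groups compared), 1 (no trend, all probe sets), 5 (array weights), 4 (without mice WT-454 and 1023) and 1 to 4 (without 1 mouse). Of all 19938 genes, array weights called 656 at 12 months in place of 187, and leaving out mice WT-454 and 1023 also called more. The higher list counts in both fits thus came with more calls over the whole array. With only the groups compared, 103 of all genes were called at 12 months. The cause of these changes was not tested.

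Differences that changed sign were small and not past the threshold in either setting. For genotype, Polr2b at 12 months became -0.035 (array weights), -0.092 (females alone) and -0.086 (without mice WT-454 and 1023), and -0.018 at 18 months (quantile). Polr2c at 18 months became -0.00081 (array weights) and -0.021 (quantile), Polr2d at 6 months -0.0052 (without mice WT-454 and 1023) and Polr2j at 12 months 0.0067 (only the groups compared). Polr2h became -0.019, -0.042 and -0.010 at 6, 12 and 18 months (mean of probe sets), -0.0079 at 6 months (no sex term, and mouse 1023 as male), -0.0013 (median centring), -0.0049 (only the groups compared) and -0.0044 (quantile) at 12 months and -0.016 (quantile) at 18. The median of the kinases and phosphatases of the C-terminal domain at 12 months became -0.085 (without mice WT-454 and 1023), -0.074 (array weights) and -0.055 (females alone). For age, in HdhQ150 mice Polr2e from 12 to 18 months became 0.0061 (array weights) and 0.0040 (median centring), Polr2g from 6 to 12 months 0.030 (females alone) and 0.021 (quantile), and Polr2l from 12 to 18 months -0.00016 (quantile). In wild type Polr2g from 6 to 18 months became -0.017 (median centring).

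Without 1 mouse the genotype differences that changed sign ran over -0.043 to 0.082 (Polr2d), -0.016 to 0.087 (Polr2e) and -0.034 to 0.077 (Polr2h) at 6 months. At 12 months they ran over -0.081 to 0.12 (Polr2b), -0.071 to 0.029 (Polr2d), -0.040 to 0.038 (Polr2h) and -0.077 to 0.044 (Polr2j). At 18 months they ran over -0.021 to 0.063 (Polr2b), -0.019 to 0.023 (Polr2c), -0.012 to 0.088 (Polr2g), -0.057 to 0.065 (Polr2h), -0.099 to 0.0030 (Polr2j) and -0.012 to 0.065 (Polr2l). For age, Polr2e ran over -0.048 to 0.028 and Polr2l over -0.015 to 0.051 from 12 to 18 months in HdhQ150 mice, Polr2g over -0.066 to 0.048 from 6 to 12 months in HdhQ150 and over -0.012 to 0.060 from 6 to 18 months in wild type.

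Genes called over all genes ran from 2 to 1330 (5 reported) at 6 months, from 103 to 656 (187 reported) at 12 and from 1 to 43 (27 reported) at 18. No paired analysis was possible because each mouse number occurs in 1 group. With 4 mice a group at 18 months, the 95% interval of the Polr2f difference ran from -0.01 to 0.40, so a difference of that size (0.19) could not be told from 0.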

Other observations

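Of the 13 subunit genes measured, the shared subunits Polr2e and Polr2l fell from 6 to 12 months in both genotypes, whereas the shared subunits Polr2f and Polr2h did not pass in either (Polr2f -0.10 and -0.09, Polr2h 0.17 and 0.15, wild type and HdhQ150 in turn). Polr2k differed by 0.27 in wild type (limma adjusted p = 0.0447) and by -0.16 in HdhQ150 mice (limma adjusted p = 0.217). The change of its genotype difference from 6 to 12 months was -0.43 and did not pass (limma adjusted p = 0.709, unadjusted p = 0.00384).

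Both probe sets of Polr2l gave the same variation (r = 0.99 over 29 arrays), unlike those of Polr2c and Polr2h.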
